A study of Homo sapiens with 8 samples.

Results

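The genes described here are 7 activators, receptors and inhibitors of the plasminogen system and their serpin relatives: PLAU, PLAT, PLAUR, SERPINE2, SERPINB2, SERPINB5 and SERPINB8. They were found by matching these symbols to the Ensembl identifiers of the count table, which held 67008 genes, and each symbol matched 1 row. RNA was sequenced from 4 lines of SKOV3, a long-used human line of ovarian carcinoma cells, here kept in McCoy's medium with serum. They are the parental culture, the empty vector clone EV 1B9 and a pair of PDE10A knockout clones, KO 5H5 and KO 2F4. All cells were untreated, and none of the 4 lines received a further agent. Each line had 2 libraries, which the labels call biological replicates from separate passages. The title of library 2 of every line ends in UnTx and that of library 1 does not, and the labels do not explain the ending. EV 1B9, KO 5H5 and KO 2F4 are single clones. The spread between libraries of 1 line is therefore that between passages and not between independently made clones.

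Plasmin, the protease that dissolves fibrin and degrades extracellular matrix, is cut from plasminogen by the urokinase-type activator (PLAU) and the tissue-type activator (PLAT). PLAU acts at the cell surface while bound to its receptor PLAUR, a glycolipid-anchored protein, and both have long been studied in the invasion of ovarian and other carcinomas. Many serpins, though not all, are suicide inhibitors. SERPINB2 blocks both activators, and the targets of SERPINE2 (protease nexin 1) include PLAU, plasmin and thrombin. SERPINB5 (maspin) and SERPINB8 belong to the largely intracellular clade B.

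PDE10A, a phosphodiesterase that degrades cAMP and cGMP, was read first. Parental held 120 and 55 counts of it, EV 1B9 183 and 220, KO 5H5 4 and 12, and KO 2F4 4 and 31 (library 1 and library 2, the order used throughout). As levels in CPM, counts relative to a library size that was scaled with TMM, the control libraries stood at 2.46 to 9.22 and the knockout libraries at 0.192 to 2.33. KO 2F4 2, at 2.33 CPM, was thus close to parental 2, at 2.46 CPM, and with RLE size factors both were at 2.46 CPM. For the members, results that rest on KO 2F4 2 are given without it where its omission changes a call. This covers knockout against control and the pairs of lines. Counts assigned to genes summed to between 15483683 and 28648044 per library. Parental 1 and KO 2F4 2 stood apart, with 44.6% and 33.4% of counted reads outside annotated genes or without a unique gene, against 24.1% to 29.8% in the other 6 libraries. PAX8, the lineage factor of Muellerian epithelium, was at 241 to 521 CPM in all libraries. The 8 ovarian carcinoma markers summed to 4780 to 12400 CPM in control and 7070 to 15800 CPM in knockout libraries, while EPCAM among them was lower in knockout libraries (0.15 to 1.1 CPM) than in control libraries (2.08 to 9.56 CPM). The 6 fibroblast markers summed to 36.7 to 151 CPM in control and 6.09 to 1940 CPM in knockout libraries, the highest single level being that of the collagen gene COL1A1 in KO 5H5 (888 and 1920 CPM), which was at 24.3 to 129 CPM in control libraries and at 2.45 and 35 CPM in KO 2F4. COL1A2 had a mean of 13.7 CPM in control and 1.3 CPM in knockout libraries, LUM of 1.42 and 0.356 CPM, DCN of 1.07 and 0.0139 CPM, and COL3A1 of 0.344 and 0 CPM. PDGFRB went the other way, at 0.0288 to 2.46 CPM in control and 3.07 to 17.1 CPM in knockout libraries. The part of these markers in the results was not tested. The 5 endothelial markers summed to at most 5.69 CPM and the 6 haematopoietic ones to at most 1.83 CPM, with CD3E at 0.

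Per kilobase of annotated exon, PLAU was the most abundant member, at 54.3 to 112 CPM per kb over the 8 libraries. SERPINE2 followed with 4.87 to 36.2 CPM per kb and PLAUR with 3.19 to 16.4 CPM per kb. PLAT lay between 0.753 and 3.46 CPM per kb. SERPINB8, at 0.275 to 1.83 CPM per kb, and SERPINB5, at 0.0282 to 1.8 CPM per kb, were scarce, and SERPINB2 had no count.

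**Figure D1:**
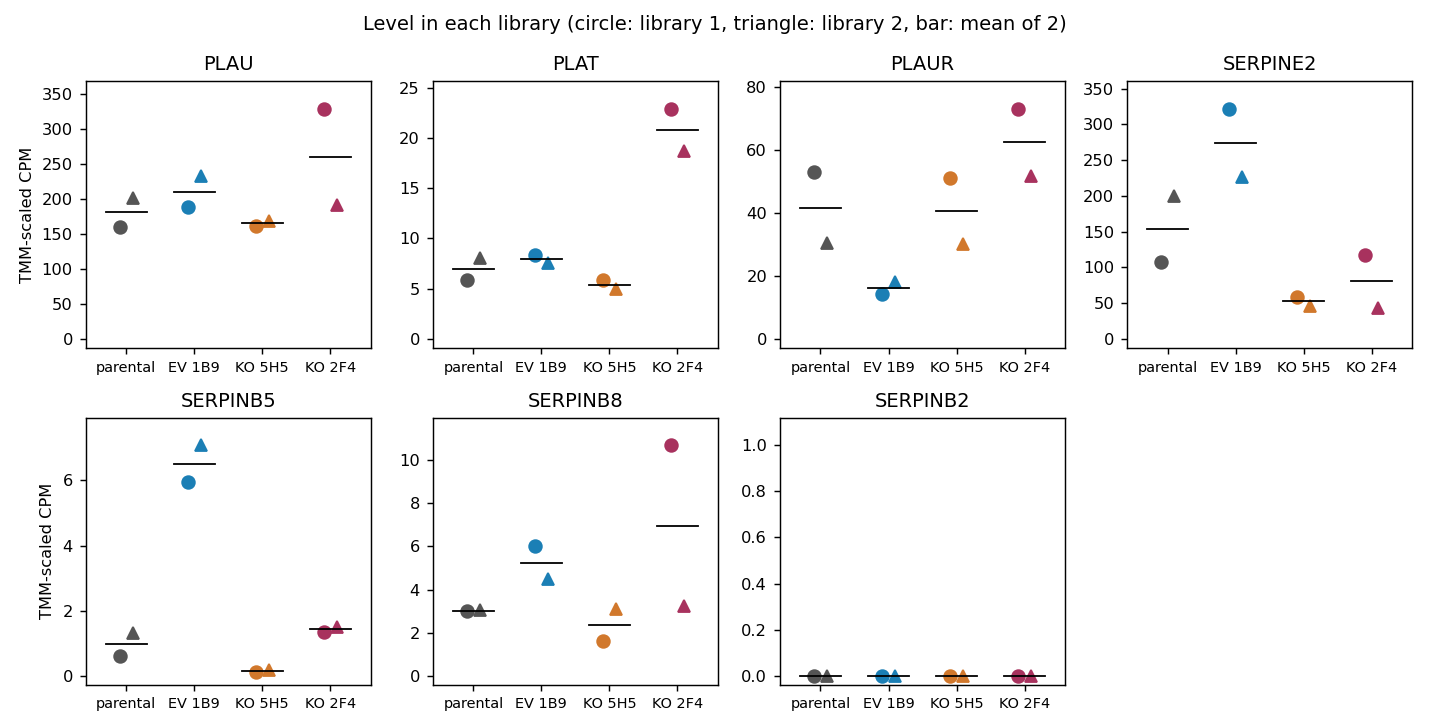
Level of each member in every library, in TMM-scaled CPM on linear axes that differ between panels. Circles are library 1, triangles library 2 and bars the mean of the 2. SERPINE2 and SERPINB5 are highest in EV 1B9 and lowest on average in KO 5H5, PLAUR is lowest in EV 1B9, and PLAT is highest in KO 2F4.

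Promoter sequences are shown for the genes that differed between lines (SERPINE2, SERPINB5 and PLAUR) and for SERPINB2, which had no reads. Each is a RefSeq GRCh38.p14 window from 250 bases before to 50 bases after an annotated start, read 5′ to 3′ on the gene's strand. Capitals mark TGANTCA, a loose form of the AP-1 motif, searched on both strands. Any middle base was accepted, so a match need not be the stricter AP-1 form with C or G there. SERPINE2 has 2 windows, chr2:224031429-224031728 and chr2:224038591-224038890 on the minus strand. SERPINB5 is chr18:63476708-63477007 on the plus strand, PLAUR chr19:43670120-43670419 on the minus strand and SERPINB2 chr18:63887455-63887754 on the plus strand.
SERPINE2 window 1: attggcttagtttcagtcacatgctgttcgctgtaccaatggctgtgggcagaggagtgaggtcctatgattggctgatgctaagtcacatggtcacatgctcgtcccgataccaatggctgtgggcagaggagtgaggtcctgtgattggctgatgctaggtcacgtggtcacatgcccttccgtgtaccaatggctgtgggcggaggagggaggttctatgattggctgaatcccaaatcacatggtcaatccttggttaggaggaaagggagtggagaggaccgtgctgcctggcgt
SERPINE2 window 2: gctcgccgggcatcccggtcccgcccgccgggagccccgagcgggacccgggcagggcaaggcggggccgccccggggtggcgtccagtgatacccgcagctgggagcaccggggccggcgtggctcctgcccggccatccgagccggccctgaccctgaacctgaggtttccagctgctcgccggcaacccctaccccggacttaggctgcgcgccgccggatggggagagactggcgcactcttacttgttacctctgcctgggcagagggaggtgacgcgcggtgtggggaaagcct
SERPINB5: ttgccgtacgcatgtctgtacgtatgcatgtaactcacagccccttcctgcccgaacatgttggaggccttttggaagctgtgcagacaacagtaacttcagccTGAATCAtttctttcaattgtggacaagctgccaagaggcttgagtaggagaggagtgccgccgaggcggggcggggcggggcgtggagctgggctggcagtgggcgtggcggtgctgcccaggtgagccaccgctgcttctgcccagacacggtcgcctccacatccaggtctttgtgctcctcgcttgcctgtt
PLAUR: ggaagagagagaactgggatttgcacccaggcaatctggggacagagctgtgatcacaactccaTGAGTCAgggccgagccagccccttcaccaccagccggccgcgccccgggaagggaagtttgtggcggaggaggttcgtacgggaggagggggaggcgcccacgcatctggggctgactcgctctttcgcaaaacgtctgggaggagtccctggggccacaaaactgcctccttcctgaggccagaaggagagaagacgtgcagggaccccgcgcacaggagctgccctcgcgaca
SERPINB2: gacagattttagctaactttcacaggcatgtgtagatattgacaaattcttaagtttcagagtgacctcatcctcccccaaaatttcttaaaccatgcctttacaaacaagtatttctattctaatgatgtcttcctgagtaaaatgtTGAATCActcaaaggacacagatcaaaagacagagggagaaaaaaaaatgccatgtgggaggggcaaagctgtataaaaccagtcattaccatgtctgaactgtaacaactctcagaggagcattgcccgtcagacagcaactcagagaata
SERPINB5, PLAUR and SERPINB2 each held the TGANTCA letters 1 time, as TGAATCA in SERPINB5 and SERPINB2 and as TGAGTCA in PLAUR. Neither SERPINE2 window held the TGANTCA letters. SERPINB8 (chr18:63969831-63970130, plus strand) held them 2 times and both PLAU windows held none. Of all 35097 promoter windows of this length, 7.71% held TGANTCA. The cAMP response element TGACGTCA, whose letters cannot hold TGANTCA, was in 1.85% of all windows, and the TCF motif TTCAAAG in 4.42%. Neither was in any of the 8 windows of these 6 genes. Window 2 of SERPINE2 held 31 CpG dinucleotides at 73.7% GC, while window 1 held 8 at 54.0% GC and the SERPINB2 window 1 at 39.0% GC. These are matches of letters in a window and describe no binding. No sequence is shown for PLAT.

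Before the members are taken 1 by 1, their counts of calls set the scale. With edgeR's quasi-likelihood test (Benjamini-Hochberg adjusted p under 0.05 over all genes), knockout against control called 192 of 13508 genes, 1.42%. Of the 6 members that passed the filter on low counts, the test called 0, with 2 at an unadjusted p under 0.05. The share of all genes at an unadjusted p under 0.05 was not computed. Counts at that threshold, here and below, therefore cannot be read as an excess. DESeq2, which called 5.72% of all genes, and edgeR without the filter, which called 2.18%, each called 1 member, SERPINE2. Limma-voom with lines as random blocks called 0.252% of all genes and 0 members. No member had knockout libraries that all lay on 1 side of all control libraries, while 10.6% of the genes tested did. With counts summed per line, so that 2 lines stood against 2, the test called 0.0685% of 16052 genes and 0 members, with 1 member at an unadjusted p under 0.05 and 0 by DESeq2, which called 1.65% of all genes. Any difference among the 4 lines was called for 7.14% of 15551 genes and for 2 of 6 members, SERPINE2 (adjusted p 0.04651) and SERPINB5 (adjusted p 0.01117). PLAT and PLAUR had adjusted p of 0.05155 and 0.06907 in that test, and DESeq2 called all 4 where it called 20.2% of all genes. Leaving out KO 2F4 2, or some other single libraries, changed whether PLAT and PLAUR passed by edgeR. In the comparisons of single lines DESeq2 called 9.78% of all genes for EV 1B9 against parental, 9.36% for KO 5H5 and 22.3% for KO 2F4 against EV 1B9, 2.21% for KO 5H5 and 5.12% for KO 2F4 against parental, and 2.41% between the clones.

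PLAU (ENSG00000122861.16, chr10:73909177-73917497) gave no difference between lines past the threshold. Parental libraries stood at 160 and 202 CPM, EV 1B9 at 188 and 233 CPM, KO 5H5 at 161 and 169 CPM and KO 2F4 at 329 and 191 CPM. KO 2F4 1 was the highest library, while KO 2F4 2 lay within the range of the controls. The line means ran from 165 ± 5.49 CPM in KO 5H5 through 181 ± 29.2 in parental and 210 ± 31.5 in EV 1B9 to 260 ± 97.4 in KO 2F4 (SD, n = 2 each). The difference between knockout and control was 0.12 on the log2 scale (SE 0.32, adjusted p 0.8869), and its sign turned with offsets for GC content and length (-0.057). In the annotation 31.1% of the PLAU exon bases lie opposite C10orf55 on the other strand, which held 0 to 71 counts per library, and the sources used here do not state whether the counting used strand.

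PLAT (ENSG00000104368.18, chr8:42175233-42207724), the activator best known from the dissolution of clots, was high in 1 clone. Parental held it at 5.84 and 8 CPM, EV 1B9 at 8.39 and 7.57 CPM, KO 5H5 at 5.83 and 4.98 CPM and KO 2F4 at 22.9 and 18.7 CPM. Both KO 2F4 libraries lay above the other 6, which spanned 4.98 to 8.39 CPM. KO 2F4 was 1.90 above KO 5H5 on the log2 scale (SE 0.49, adjusted p 0.1458), 1.57 above parental (SE 0.48, adjusted p 0.152) and 1.43 above EV 1B9 (SE 0.48, adjusted p 0.06319), none past the threshold. With offsets for GC content and length the same differences were 2.12, 1.58 and 1.99 with adjusted p of 0.02669, 0.04681 and 0.006175, all past it, in fits that called 1.05%, 3.73% and 12.7% of all genes. DESeq2 called all 3 as well (adjusted p 0.003627, 0.02171 and 0.01282). With the title suffix as a block added to the offsets, only the difference from EV 1B9 passed (1.99, adjusted p 0.01135). Parental, EV 1B9 and KO 5H5, the 3 lower lines in the order of means (6.92 ± 1.53, 7.98 ± 0.584 and 5.41 ± 0.601 CPM), did not differ past the threshold. Knockout against control gave 0.81 (SE 0.51, adjusted p 0.4833).

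PLAUR (ENSG00000011422.12, chr19:43646095-43670547), the urokinase receptor, was lowest in the empty vector clone. Its level reached 53 and 30.5 CPM for parental, 14.2 and 18.2 CPM for EV 1B9, 51.3 and 30.2 CPM for KO 5H5, and 73.2 and 51.9 CPM for KO 2F4. Both EV 1B9 libraries lay below all others, and parental and KO 5H5 covered nearly the same range. PLAUR rose in KO 2F4 against EV 1B9, by 2.00 on the log2 scale (4-fold, SE 0.46, adjusted p 0.01477), in a comparison that called 13.0% of all genes. Without EV 1B9 1 it was 1.76 with an adjusted p of 0.05945, and with offsets for GC content and length 1.47 with an adjusted p of 0.02564. Against the same EV 1B9 libraries, KO 5H5 gave 1.42 (SE 0.46, adjusted p 0.105), which missed the threshold. It passed by DESeq2 (1.39, adjusted p 0.04392) and when a KO 2F4 library, which is in neither group, was left out of the fit. Without KO 2F4 1 it was 1.32 (adjusted p 0.04781, 8.34% of all genes called), without KO 2F4 2 1.41 (adjusted p 0.03108, 8.36% called), and without parental 1 and KO 2F4 2 together 1.49 (adjusted p 0.0162). EV 1B9 against parental gave -1.41 (SE 0.46, adjusted p 0.1234), a comparison that called 1.34% of all genes and 0 members by edgeR, 2 of them at an unadjusted p under 0.05 and 2 by DESeq2 (PLAUR lower and SERPINB5 higher). PLAUR passed there by edgeR without KO 2F4 1 (-1.27, adjusted p 0.0497, 11.6% of all genes called) and without KO 2F4 2 (-1.37, adjusted p 0.03342, 10.8% called). KO 5H5 and KO 2F4 differed from parental by 0.01 (SE 0.45) and 0.59 (SE 0.45), the first turning to -0.042 under RLE size factors. Knockout against control gave 0.84 (SE 0.44, adjusted p 0.3916).

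SERPINE2 (ENSG00000135919.13, chr2:223975112-224039319), whose 2 promoter windows are printed above, was highest in EV 1B9 and lowest on average in KO 5H5. Parental carried 108 and 200 CPM, EV 1B9 322 and 226 CPM, KO 5H5 58.3 and 46.7 CPM, and KO 2F4 118 and 43.3 CPM. Both EV 1B9 libraries were above all others. The classes overlapped by 1 pair, since KO 2F4 1 at 118 CPM exceeded parental 1 at 108 CPM. In bulk RNA, fewer cells with the transcript and less transcript per cell cannot be told apart. The class means were 214 ± 88.1 CPM in control and 66.7 ± 35.1 CPM in knockout libraries (SD, n = 4 each). Knockout against control gave -1.68 on the log2 scale (SE 0.42, adjusted p 0.07845), which missed the threshold. It passed by DESeq2 (-1.63, adjusted p 0.008686), without the filter on low counts (-1.72, adjusted p 0.001166) and without parental 1 (-1.83, adjusted p 0.04402), while offsets for GC content and length gave -1.21 with an adjusted p of 0.1101.

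Set against EV 1B9, KO 5H5 had 4.86-fold less SERPINE2, which fell by 2.28 (log2, SE 0.54, adjusted p 0.02725). That comparison called 4.38% of all genes, and 1.68% as lower. With offsets for GC content and length the fall was by 1.71 (adjusted p 0.0336), in a fit that called 6.37% of all genes. The fall of KO 2F4 against the same libraries, by 1.69 (SE 0.53, adjusted p 0.04996), was just inside the threshold. That comparison called 6.11% of all genes as lower. That call was lost with the offsets (-0.64, adjusted p 0.3498) and with the title suffix as a block (-1.74, adjusted p 0.07178). Block and offsets together gave -0.63 (adjusted p 0.3126). The call was also lost without EV 1B9 1 (-1.49), without KO 2F4 2 (-1.14) and without parental 1 and KO 2F4 2 together (-1.13). The order of line means was EV 1B9 (274 ± 68.2 CPM), parental (154 ± 65.3), KO 2F4 (80.8 ± 53.1) and KO 5H5 (52.5 ± 8.26), and no 2 neighbours in it differed past the threshold. Against parental, the differences were -1.53 in KO 5H5 (SE 0.53, adjusted p 0.3489) and -0.94 in KO 2F4 (SE 0.52, adjusted p 0.4604). The first passed without KO 2F4 1 (-1.50, adjusted p 0.0336, 2.95% of all genes called) and without KO 2F4 2 (-1.52, adjusted p 0.03399, 3% called). The second ranged from -1.91 to -0.33 with single libraries left out and passed without KO 2F4 1 (-1.91, adjusted p 0.02786, 6.5% of all genes called). With all libraries those comparisons called 0.740% and 1.34% of all genes and 0 members each by edgeR, with 2 and 1 members at an unadjusted p under 0.05 and 0 and 1 by DESeq2. EV 1B9 against parental gave 0.75 (SE 0.52), which turned to -0.24 with the offsets.

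The GC content of the members and the offsets fitted to it are given next, and their part in the differences between lines was not tested. The GC content of the longest transcript was 41.0% for SERPINE2, 41.6% for SERPINB5 and 42.3% for SERPINB8, against 45.6% for PLAT, 54.0% for PLAU and 55.7% for PLAUR. The offset that a gene of SERPINE2's GC content and length received ran from -0.78 on the log2 scale in KO 2F4 2 to 1.05 in EV 1B9 2. Between these it was 0.54 for EV 1B9 1, -0.66 and -0.14 for parental, -0.14 and 0.35 for KO 5H5, and -0.22 for KO 2F4 1. The offsets moved the median log2 difference of all genes in knockout against control from -0.14 to 0.03, and in KO 2F4 against EV 1B9 from -0.13 to 0.10. Relative to those medians, SERPINE2 stood at -1.54 without and -1.23 with the offsets in knockout against control, and at -1.56 and -0.74 in KO 2F4 against EV 1B9. In KO 5H5 against EV 1B9 the 2 values were -2.18 and -1.70.

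**Figure D2:**
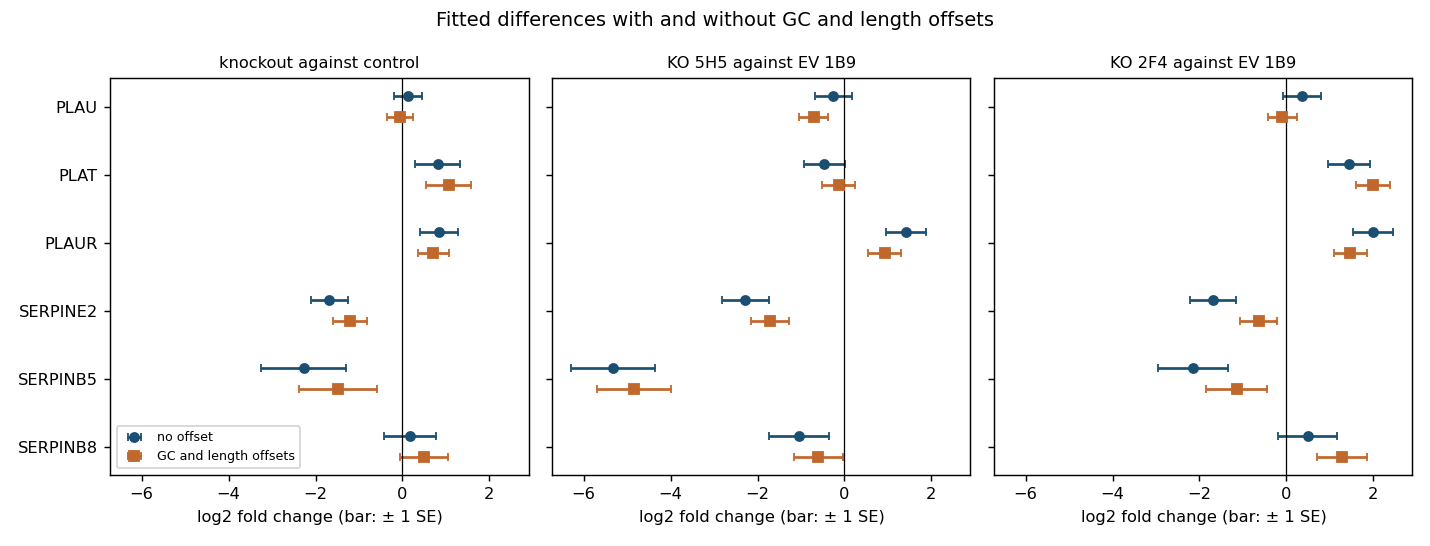
Log2 fold change of 6 members (points, bars ± 1 SE) in 3 comparisons, fitted without (circles) and with (squares) offsets for GC content and length. SERPINE2 in KO 2F4 against EV 1B9 moves from -1.69 to -0.64, while SERPINB5 in KO 5H5 against EV 1B9 is -5.32 and -4.84. The 2 right panels share the EV 1B9 libraries.

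The balance of these genes within a library does not rest on the scaling between libraries, so ratios per kilobase were formed, chosen after the values were seen and given without a test. PLAU over SERPINE2 was 4.47 and 3.03 for parental, 1.76 and 3.11 for EV 1B9, 8.34 and 10.9 for KO 5H5, and 8.38 and 13.3 for KO 2F4. As counted, the ratio was higher in all 4 knockout libraries than in all 4 controls, and PLAU over the other genes tested separated in this way for 4.98% of them. With offsets for GC content and length the separation was lost. PLAU over SERPINE2 then became 2.74 and 2.25 for parental, 2.8 and 8.73 for EV 1B9, 7.24 and 13.6 for KO 5H5, and 6.55 and 7.78 for KO 2F4. EV 1B9 2 lay above 3 of the 4 knockout libraries, and 1 knockout library lay above all controls. PLAU over PLAUR was highest in EV 1B9, at 20 and 19.3, against 4.57 to 9.97 elsewhere, and with the offsets at 17.1 and 21 against 4.74 to 9.33.

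**Figure D3:**
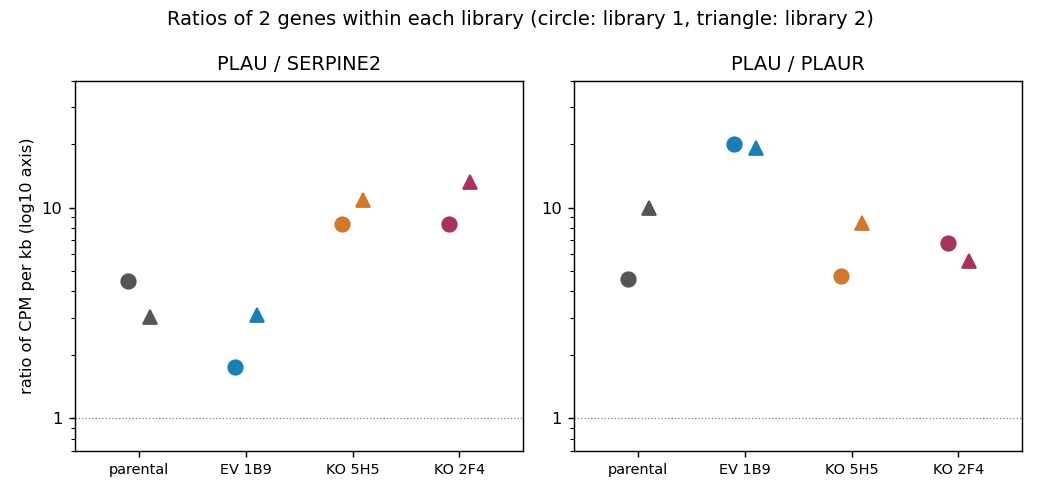
Ratio of 2 genes within each library, each gene in CPM per kb of exon, on log10 axes. The dotted line marks a ratio of 1. PLAU over SERPINE2 lies higher in the 4 knockout libraries (8.34 to 13.3) than in the 4 controls (1.76 to 4.47) as plotted, but EV 1B9 2 rises to 8.73, above 3 knockout libraries, with offsets for GC content and length. PLAU over PLAUR is highest in EV 1B9.

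SERPINB5 (ENSG00000206075.14, chr18:63476761-63505085), the epithelial serpin maspin, was found mainly in the empty vector clone. Parental held 8 and 29 counts, EV 1B9 206 and 174, KO 5H5 2 and 5, and KO 2F4 28 and 20. As levels these were 0.615 and 1.3 CPM, 5.94 and 7.08 CPM, 0.111 and 0.177 CPM, and 1.34 and 1.5 CPM. EV 1B9 was above and KO 5H5 below all other libraries, and KO 2F4 lay just above parental. Against EV 1B9, SERPINB5 fell by 5.32 in KO 5H5 (log2 scale, SE 0.96, adjusted p 0.005186), and by 4.84 with offsets for GC content and length (adjusted p 0.003844). Since KO 5H5 held 7 counts in all, beside 380 in EV 1B9, the ratio from the counts alone was 42.4 with a 95% interval of 20.4 to 106, which covers counting error only.

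KO 2F4 against the same EV 1B9 libraries gave -2.15 for SERPINB5 (SE 0.80, adjusted p 0.09036), and EV 1B9 against parental gave 2.67 (SE 0.82, adjusted p 0.1142). Both missed the threshold, and both passed by DESeq2 (adjusted p 0.04816 and 0.02302). By edgeR the first passed without parental 1 (-2.27, adjusted p 0.04305, 15.9% of all genes called). The second passed without KO 2F4 1 (2.79, adjusted p 0.009703) and without KO 2F4 2 (2.69, adjusted p 0.01493). The clones differed from each other by 3.17 (KO 2F4 above KO 5H5, SE 0.91, adjusted p 0.194), in a comparison that called 0.392% of all genes and 0 members by edgeR, 3 members having an unadjusted p under 0.05 and DESeq2 calling PLAT and SERPINB5. The SERPINB5 difference passed by edgeR when KO 2F4 1 was left out (adjusted p 0.03629, 6.29% of all genes called). Knockout against control gave -2.27 (SE 0.97, adjusted p 0.2944). The order of line means was EV 1B9 (6.51 ± 0.804 CPM), KO 2F4 (1.42 ± 0.112), parental (0.956 ± 0.482) and KO 5H5 (0.144 ± 0.0464), and no neighbours in it differed past the threshold. KO 5H5 against parental gave -2.65 (SE 0.91, adjusted p 0.3474).

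SERPINB8 (ENSG00000166401.15, chr18:63969925-64019779), a clade B inhibitor of furin, measured 3 and 3.04 CPM for parental, 6.03 and 4.47 CPM for EV 1B9, 1.61 and 3.08 CPM for KO 5H5, and 10.7 and 3.23 CPM for KO 2F4. The spread within KO 2F4 was wider than that between the other lines. Knockout against control gave 0.17 on the log2 scale (SE 0.60, adjusted p 0.9185), which turned to -0.65 without KO 2F4 1. The difference between the clones, 1.54 (SE 0.70, adjusted p 0.4568), was the widest of its 6 line comparisons, and none passed with all libraries. Without parental 1 and KO 2F4 2 together that difference was 2.13, in a fit where KO 2F4 1 stood alone in its line. Its exons share 6.3% of their bases with HMSD on the same strand, which held 0 to 13 counts per library.

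SERPINB2 (ENSG00000197632.9, chr18:63871692-63903890), the activator inhibitor first known from placenta and monocytes, had 0 counts in all 8 libraries. Of 169684714 gene counts, a count of 0 allows up to 3, or 0.0171 CPM over all libraries. It was not tested. In the annotation 19.9% of its exon bases are shared with SERPINB10 on the same strand, which also had 0 counts.

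The other 10 clade B serpins give the setting of these 3 genes. Most clade B genes lie side by side on chromosome 18, and in that cluster SERPINB5 and SERPINB8 were the members with reads in all libraries. SERPINB3, SERPINB10 and SERPINB13 had 0 counts throughout, and SERPINB4, SERPINB7, SERPINB11 and SERPINB12 had at most 13 in any library. SERPINB1, SERPINB6 and SERPINB9, inhibitors of leukocyte proteases that lie on chromosome 6, were the 3 tested and ranged from 6.07 to 39.5, from 227 to 386 and from 9.46 to 31.6 CPM. In knockout against control they gave -0.02, -0.26 and -0.04 on the log2 scale (SE 0.49, 0.29 and 0.40). None was called in any comparison by edgeR or DESeq2, 1 reaching an unadjusted p under 0.05 by edgeR (SERPINB1, EV 1B9 against parental, 1.27).

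**Figure D4:**
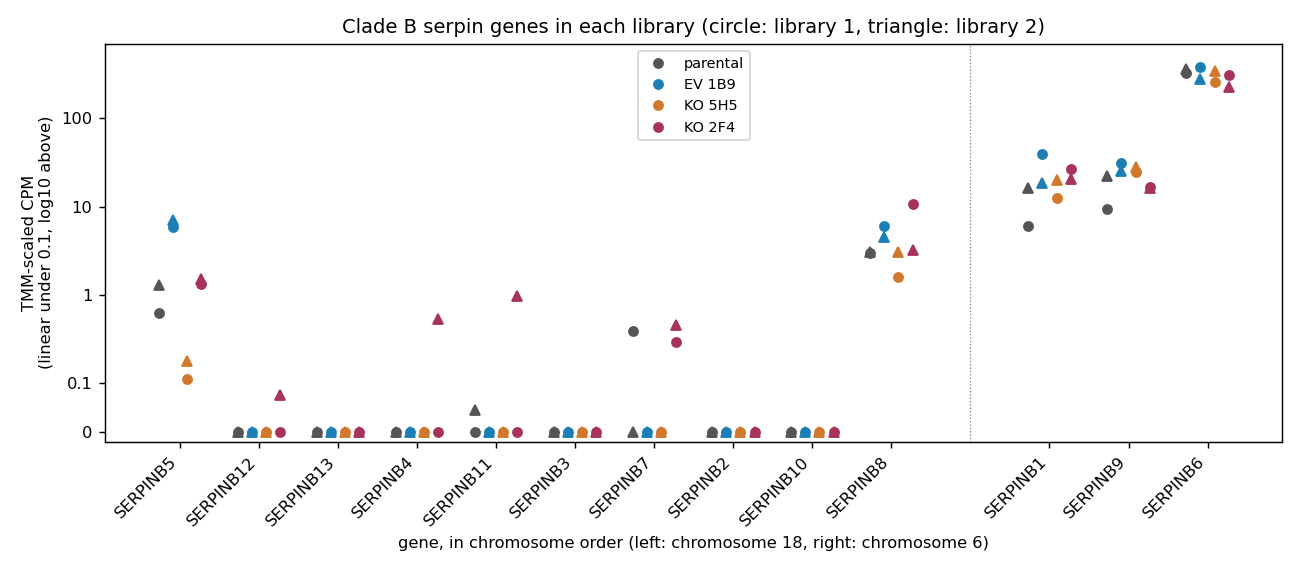
TMM-scaled CPM of 13 clade B serpin genes in each library, in chromosome order, with chromosome 18 left and chromosome 6 right of the dotted line. The axis is linear under 0.1 CPM and log10 above. On chromosome 18 only SERPINB5 and SERPINB8 have reads in all 8 libraries, and the 3 genes of chromosome 6 do too.

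Of 32 other genes of the plasminogen system, 21 were tested. PLG and the plasmin inhibitor SERPINF2 had 0 counts in all libraries. In knockout against control edgeR called 0 of the 21, DESeq2 called 5, the fit with GC and length offsets, which called 4.06% of all genes, 3, and limma-voom 0. By edgeR 5 had an unadjusted p under 0.05, with no share of all genes at that threshold to set beside them. The median log2 difference of the list was -0.10, beside -0.14 over all genes tested. The smallest p belonged to ITGA5, the fibronectin receptor chain that works with PLAUR, which was at 50.3 to 107 CPM in control and 186 to 283 CPM in knockout libraries (1.43, SE 0.33, adjusted p 0.05174). CTSB, a cysteine protease that can activate pro-urokinase, gave 1.53 (SE 0.37, adjusted p 0.06649), from 102 to 224 CPM in control and 348 to 746 CPM in knockout libraries. LRP1, the receptor that clears activator and inhibitor complexes, gave 1.44 (SE 0.44, adjusted p 0.1378), from 6 to 28.3 CPM in control and 32.5 to 67.3 CPM in knockout libraries. SORL1, which also binds them, gave -1.95 (SE 0.62, adjusted p 0.1475), from 16.1 to 43.2 CPM in control and 1.05 to 13.5 CPM in knockout libraries. LRPAP1, a chaperone of LRP1, was at 412 to 545 CPM in control and 222 to 304 CPM in knockout libraries and is named after its values were seen. The classes did not overlap for 5 of the 21 genes, of which ITGA5, CTSB and LRP1 were higher in knockout and SORL1 and LRPAP1 lower, where 4.34% of all genes tested were higher and 6.26% lower without overlap. With the offsets LRP1, ITGA5 and CTSB passed the threshold.

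The comparisons of the clones with EV 1B9 share its libraries and are not independent. In KO 5H5, LRP1 (2.24, SE 0.55, adjusted p 0.03366) and CTSB (1.62, SE 0.43, adjusted p 0.04691) rose, 2 of 21 where 2.69% of all genes did, and 0 fell. In KO 2F4, ITGA5 (1.71, SE 0.45, adjusted p 0.02601), CTSB (2.38, SE 0.44, adjusted p 0.004281) and ITGB3 (2.62, SE 0.79, adjusted p 0.04353) rose, 3 of 21 where 6.87% of all genes did. ITGB3, a chain of the vitronectin receptor, is named after its values were seen. It was lowest in EV 1B9, at 0.548 and 1.99 CPM, against 8.73 and 6.38 CPM in KO 2F4. Parental held it at 2.31 and 6.48 CPM and KO 5H5 at 4.61 and 9.9 CPM, so parental 2 lay above KO 2F4 2. SORL1 fell in KO 2F4 against EV 1B9 by 3.15 (SE 0.75, adjusted p 0.01642). The list medians were 0.25 in KO 5H5 and 0.38 in KO 2F4, beside -0.10 and -0.13 over all genes. In EV 1B9 against parental edgeR called 0 of the 21 and DESeq2 called 3 (PLGRKT, ITGB1 and ST14). By edgeR 7 had an unadjusted p under 0.05, again with no share of all genes at that threshold beside them. Of 16 other serpins, 3 were tested in knockout against control and 0 called, also at an unadjusted p under 0.05 and by DESeq2. SERPING1, the C1 inhibitor, rose in KO 2F4 against EV 1B9 (4.38, SE 1.09, adjusted p 0.01988). Its level was 0.202 and 0.366 CPM in EV 1B9 and 1.68 and 10.2 CPM in KO 2F4. Parental ranged from 0.922 to 2.41 CPM and KO 5H5 from 0.742 to 1.33 CPM. EV 1B9 was thus the lowest line, KO 2F4 1 lay within the parental range, and only KO 2F4 2 lay above it.

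Among 10962 protein-coding genes (mean level 1 CPM or more), the profiles most like those of the members over the 8 libraries were sought by Pearson correlation of log2 CPM, as a description. The 8 points are 2 libraries of each of 4 lines and share their depth and base composition. SERPINE2 was most like EMP1 (r 0.987), UBAC2 (0.964) and UNC5B (0.961). SERPINB5 was most like SH2B3 (0.955), SUSD6 (0.954) and PLA2G6 (0.953), and SERPINB8 like CDR2 (0.943), TIFA (0.941) and RAD1 (0.926). PLAUR was most like TTC31 (0.981), GSS (0.980) and SHMT2 (0.979). PLAU was most like SLC23A2 (0.950), GAB2 (0.907) and ETS1 (0.890), and PLAT like UCHL1 (0.956), NEMP2 (0.955) and PTRH2 (0.929). No member was among the 3 most like another. Over the 4 line means the highest correlations were 0.998 to 1.00 for every member, a number of points at which many genes match.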

How the data were processed

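The authors deposited raw counts per gene for all 8 libraries in 1 table. Per the labels, RNA of integrity number 7 or more went into directional libraries read as 75 base pairs at both ends. Per the submitters' processing notes, HTSeq 0.11.3, STAR 2.7.3a, DESeq2 1.26.0, bcl2fastq 2.18.0.12 and GRCh38 were used, with no roles named. Annotation release and strand setting were not given in the sources used here. In all, 5 summary lines, 24.1% to 44.6% of counted reads, stayed out of library sizes and tests. Unmapped columns numbered 0.

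Symbols came from a gene name reference (60649 of 67008 identifiers), coordinates, exon lengths and GC content from GENCODE 29 on GRCh38, and promoters from RefSeq.

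Counts were scaled with TMM and low genes removed by filterByExpr (at least 10 counts, total 15) in edgeR 4.0.16 on R 4.3.3. Its quasi-likelihood test, adjusted after Benjamini-Hochberg and called at 0.05, was run over 2 classes of 4 libraries, over counts summed per line, and over line means in 1 fit with a shared spread. All fold changes are log2 with standard errors. Log2 CPM for likeness used a prior count of 2. P-values from fits with 1 mean per line rest on the spread between passages. Those of edgeR and DESeq2 over 2 classes of 4 libraries mix it with the spread between the lines of a class. They also treat both libraries of 1 line as independent. Intervals and floors (3 counts) cover counting error only.

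Alternatives were RLE factors, no filter, DESeq2 1.42.0, offsets for GC content and length (splines with 5 degrees of freedom), the title suffix as a block, each library left out, 1 mean per line, single controls or clones, and limma 3.58.1 (voom) with lines as random blocks (correlation 0.341). Leaving out parental 1 and KO 2F4 2 together, and applying the offsets to ratios of genes, were added after the data were seen.

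The members and lists were chosen with earlier results of these data known. The rule for naming took all members, PDE10A and up to 4 genes with the smallest p in knockout against control from each of 3 lists, and the 3 genes most like each member; 1 further gene it named is not reported here.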

Additional observations from a re-analysis of the deposited data

How the results depend on the processing

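Under every alternative run on the line comparisons, the falls of SERPINB5 and SERPINE2 in KO 5H5 against EV 1B9 and the rise of PLAUR in KO 2F4 against EV 1B9 kept their direction. SERPINB5 passed in all that were run, SERPINE2 in KO 5H5 in all but the title suffix block (-2.27, adjusted p 0.05117), and PLAUR in all but the omission of EV 1B9 1. The deviations of same-suffix libraries from their line means had correlations of -0.256 to 0.204, so the numbers were not taken to pair libraries. As a block the suffix called 124 genes in knockout against control, 718 for any difference among lines and 35 in KO 2F4 against KO 5H5, and 1 member each for any difference, KO 5H5 against EV 1B9 and KO 2F4 against EV 1B9. The block with GC and length offsets called 293 genes in knockout against control, 176 in KO 5H5 against parental (1 member, SERPINE2), 441 in KO 2F4 against parental and 93 between the clones. The cause of the differences between settings was not tested.

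The genes called in knockout against control numbered 192 (40 higher, 152 lower), 714 without the filter (298 higher, 416 lower), 911 by DESeq2 (367 higher, 544 lower), 548 with GC and length offsets (234 higher, 314 lower), 330 without parental 1 and KO 2F4 2, 1079 with 1 mean per line (530 higher, 549 lower), 1860 with EV 1B9 alone as control (884 higher, 976 lower), 429 with KO 5H5 alone (251 higher, 178 lower), 1157 with KO 2F4 alone (668 higher, 489 lower) and 34 by limma-voom. Members called there numbered 0, but 1 without the filter, 1 by DESeq2, 2 with 1 mean per line (SERPINE2 and SERPINB5), 3 with EV 1B9 alone (PLAUR too), 1 with KO 5H5 alone (SERPINB5) and 1 with KO 2F4 alone (PLAT). With counts summed per line, 11 genes became 279 without the filter, 267 by DESeq2 and 0 with the offsets. For any difference among lines, 1111 became 2525 without the filter, 3023 by DESeq2 and 2727 without parental 1 and KO 2F4 2, and members called became 4, 4 and 5.

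In EV 1B9 against parental, 209 genes became 946 without the filter, 1400 by DESeq2, 316 with the offsets and 573 without the pair of libraries that stood apart, and members called became 2 by DESeq2. In KO 5H5 against EV 1B9, 681 became 1399 by DESeq2 and 2107 without that pair. In KO 2F4 against EV 1B9, 2019 became 3468 by DESeq2, with 4 members. In KO 5H5 against parental, 115 became 259, 358, 199 and 350 (no filter, DESeq2, offsets, without the pair), with 1 member, SERPINB5, without the pair. In KO 2F4 against parental, 208 became 465, 765, 580 and 414 in the same order, with 1 member, PLAT, by DESeq2 and with the offsets. Between the clones, 61 became 272, 345, 163 and 434, with 2 members by DESeq2, 1 with the offsets and 3 without the pair. That last fit has 1 library in 2 of the lines and few degrees of freedom.

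With single libraries left out, the genes called ranged from 66 to 222 in knockout against control, from 1593 to 4610 for any difference, from 167 to 2209 in EV 1B9 against parental, from 469 to 1589 in KO 5H5 and from 1526 to 4022 in KO 2F4 against EV 1B9, from 95 to 741 in KO 5H5 and from 214 to 1239 in KO 2F4 against parental, and from 59 to 1199 between the clones. Members called ranged from 0 to 1 in knockout against control, from 2 to 4 for any difference, from 0 to 2 in EV 1B9 against parental, from 2 to 3 in KO 5H5 and from 0 to 3 in KO 2F4 against EV 1B9, and from 0 to 1 in the other 3. A library left alone in its line took the spread of the rest.

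Signs turned for the values below, none of which had passed the threshold. PLAU in knockout against control became -0.057 with the offsets, -0.053 with block and offsets and -0.18 with KO 5H5 alone, and -0.17 to 0.28 with libraries left out. PLAU in EV 1B9 against parental was -0.029 without the pair (-0.029 to 0.45 with libraries left out), in KO 2F4 against EV 1B9 -0.093 with the offsets and -0.086 with block and offsets (-0.27 to 0.70), and in KO 5H5 against parental 0.003 with the offsets and 0.003 with block and offsets (-0.28 to 0.18). PLAT became -0.40 in knockout against control with KO 5H5 alone, and in EV 1B9 against parental -0.41 with the offsets, -0.41 with block and offsets and -0.09 without the pair, and ranged from -0.56 to 0.02 in KO 5H5 against parental. PLAUR in KO 5H5 against parental became -0.042 with RLE factors and -0.042 by DESeq2 (-0.36 to 0.42). SERPINE2 in EV 1B9 against parental became -0.24 with the offsets and -0.39 with block and offsets, and ranged from -0.41 to 1.15 between the clones. SERPINB8 in knockout against control became -0.28 with EV 1B9 alone, -0.69 with KO 5H5 alone and -0.12 by limma-voom (-0.65 to 0.52), in EV 1B9 against parental -0.24 with the offsets and -0.26 with block and offsets, and ranged from -0.83 to 1.10 in KO 2F4 against EV 1B9 and from -0.85 to 0.12 in KO 5H5 against parental.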
